A study of Mus musculus with 15 samples.

Results

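Mouse small cell lung cancer lines that lack Stat3 were compared with lines of the same tumour model that keep it. The comparison uses the 7 lung samples of the first of 2 deposited count tables, out of 15 samples in the series: 4 RPM lines (CMV_426, CMV_427, CMV_428 and CMV_429) and 3 RPMS lines (CMV_228, CMV_231 and CMV_252). RPM lines carry Rb1-/-, Trp53-/- and MYC, and RPMS lines carry the same 3 alterations plus STAT3-/-, so by the labels the loss of Rb1 and Trp53 and the MYC allele are shared by both groups. The labels describe cells taken from lung tissue, called lung epithelium, and cultured in low-serum medium. They name neither the promoter that drives MYC or Cre, nor the animals behind the lines, nor the sex or age of those animals. Nothing says that the lines of a group came from separate animals, so p-values measure only the spread between these samples. All 53689 named gene records were eligible, and 17654 passed the expression filter and were tested.

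STAT3 is a transcription factor that cytokine and growth factor receptors switch on through JAK kinases. Phosphorylated STAT3 dimers enter the nucleus and bind short palindromic sites near their target genes, among them Socs3, whose product feeds back on the same receptors, and Bcl6, which encodes a transcriptional repressor. In lung cancer STAT3 is known both as a survival factor of tumour cells and as a regulator of the inflammatory cells around them. Small cell lung cancer is a neuroendocrine tumour that often switches to states with low neuroendocrine gene expression.

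Depth ran from 25344949 to 31345631 counts, so that 3 counts equalled 0.0905 to 0.120 CPM (counts scaled to a common library total with TMM factors), and no sample was a copy of another. Leukocyte and macrophage markers, which the label of lung epithelium does not cover, were high in the RPM samples. The summed level of 22 leukocyte and macrophage markers was 22528, 14305, 4448 and 7112 CPM in CMV_426, CMV_427, CMV_428 and CMV_429, against 43.6, 57.9 and 135 CPM in CMV_228, CMV_231 and CMV_252. The 10 neuroendocrine markers summed to 11.8 to 63.6 CPM in RPM and to 3402, 3389 and 903 CPM in the RPMS samples. Ptprc, the pan-leukocyte antigen CD45, stood at 168 to 547 CPM in RPM against 0 in all 3 RPMS samples. Fibroblast markers were at 20.7 to 663 CPM in RPM against 7.14 to 17.0 CPM in RPMS, endothelial markers at 18.2 CPM or more and 0.736 to 14.6 CPM, and alveolar markers at 129 to 1364 and 97.7 to 169 CPM. Pan-epithelial markers summed to 52.8, 50.3, 63.9 and 579 CPM in RPM and to 29.8, 105 and 13.1 CPM in RPMS. Airway markers were at 0.560 to 393 CPM in RPM against 1.57 to 4.21 CPM in RPMS. Lymphocyte markers summed to at most 1.13 CPM and erythroid markers to at most 0.486 CPM in any sample. In bulk RNA, fewer cells of a type and less RNA per cell cannot be told apart, and here the genotype and the make-up of the cultures cannot be told apart either. On principal components, PC1 (72.7% of the variance) separated the groups, and RPMS line CMV_252 stood apart from the other RPMS samples on PC2 (9.09%).

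The second table holds another sample under the name of each of those RPMS lines and a further RPMS lung line, CMV_232, and was normalized separately, so its levels are set beside the first table only as a description. There the neuroendocrine sum was 3891, 3903 and 2952 CPM in CMV_228, CMV_231 and CMV_232, but 160 CPM in CMV_252, whose vimentin level was 554 CPM against 12.9 CPM in the first table. Whether the CMV_252 samples of both tables are the same culture is not given, so CMV_252 values of the second table may not describe the line in the first. Of 2632 genes called higher in RPMS and present in both tables, 2143 (81.4%) lay above all 4 RPM samples in CMV_228, CMV_231 and CMV_232 of the second table together, and of 2750 called lower, 2360 (85.8%) lay below them. For CMV_252 alone the shares were 67.1% and 72.8%. The genes were chosen by first-table values of CMV_228, CMV_231 and CMV_252 and set against the same RPM samples. These shares are therefore no independent check, and no such share over all tested genes is given.

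**Figure D1:**
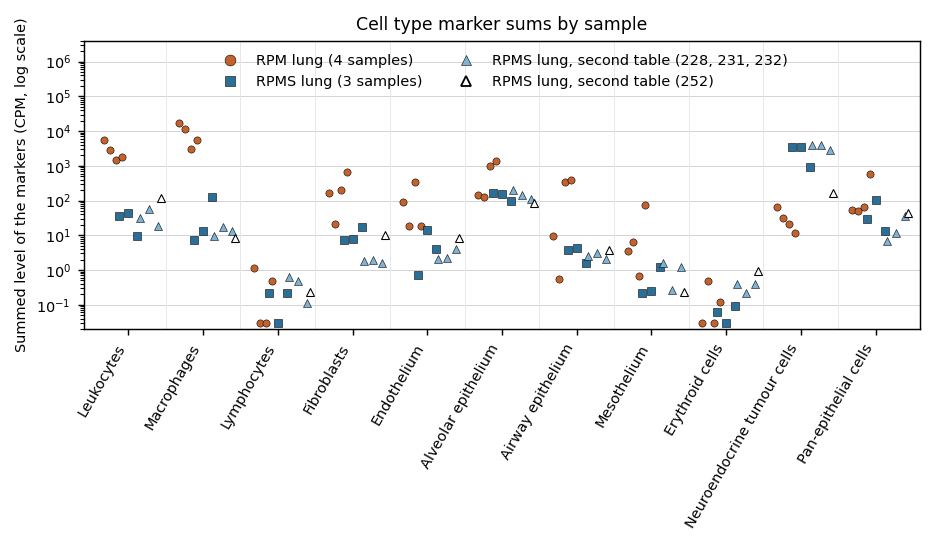
Summed CPM (log scale) of each cell type marker list in every sample: circles, 4 RPM lung samples; squares, 3 RPMS lung samples; filled triangles, RPMS lines CMV_228, CMV_231 and CMV_232 of the second table; open triangle, CMV_252 of the second table. Leukocyte and macrophage sums were higher in every RPM sample than in any RPMS sample, and neuroendocrine sums were lower; a sum of 0 is drawn at 0.03.

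Stat3 itself was at 179, 195, 159 and 208 CPM in the RPM samples and at 14.4 ± 5.83 CPM (SD, n = 3) in the RPMS samples, lowest in CMV_252 with 7.81 CPM (edgeR: log2 ratio -3.69, SE 0.35, adjusted p = 0.00176). The log2 ratio is the fitted log2 fold change of RPMS over RPM. The groups did not overlap, and reads from the gene remained in every RPMS sample. Reads of the genes altered in both groups were not even. Myc was at 14.8, 28.2, 9.64 and 30.5 CPM in RPM against 0.674, 1.20 and 3.56 CPM in RPMS (log2 ratio -3.52, SE 0.76, adjusted p = 0.0146, and 0.0603 without CMV_231), and at 17.2 to 75.4 CPM in the RPMS lines of the second table. Rb1 was at 38.6 to 58.9 CPM against 123, 130 and 21.9 CPM (log2 ratio 0.94, adjusted p = 0.241) and Trp53 at 2.39 to 6.32 CPM against 0.399, 0.570 and 6.18 CPM (log2 ratio -0.82, adjusted p = 0.571); without CMV_252 both passed, with adjusted p = 0.00623 and 0.014. Which parts of these genes the alleles remove, and whether reads of the MYC allele count as Myc, is not given in the sources used here.

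Of 17654 genes tested, 5403 passed the edgeR threshold (adjusted p under 0.05), which is 30.6%: 2639 (14.9%) were higher and 2764 (15.7%) were lower in RPMS, with a median log2 fold change over all genes of -0.01. Leaving out a line gave 2896 calls without CMV_228, 3103 without CMV_231 and 7076 without CMV_252, and between 4165 and 4529 without any RPM line; 2613 genes (1211 higher, 1402 lower) were called in every such fit. With the leukocyte and macrophage marker sum as a covariate, 2060 genes passed, and 1857 of them had been called in the same direction without it. That sum was at least 4448 CPM in every RPM sample and at most 135 CPM in every RPMS sample, so it separates the groups as well. Grik3, at 0 in all RPM samples, was not called there despite a log2 fold change of 14.84. Counts with the covariate, here and below, therefore do not show which genes differ apart from culture make-up.

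Genes detected in every sample and genes that differed little among the 4 RPM samples were counted separately. Among 11604 genes with at least 1 CPM in every sample, 1387 were higher and 1451 lower. For 3841 genes the highest RPM level was at most 1.5 times the lowest. Their mean RPM level was at least 20 CPM for a negative and 5 CPM for a positive log2 fold change. The leukocyte and macrophage sum differed 5.06-fold between the same samples, and the part of culture make-up in the calls was not tested. Of these 3841 genes 547 were higher and 435 lower, a share of 25.6% called against 30.6% over all genes. That count was 399 without CMV_228, 444 without CMV_231 and 1663 without CMV_252 in place of 982, and 605 to 650 without any RPM line.

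The genes expressed in both groups with the largest increases included several known from neurons. Camk2b, a calcium-dependent kinase of neurons (chromosome 11, 5969644 to 6066362), was at 1.37, 1.61, 1.68 and 3.36 CPM in RPM against 253, 253 and 122 CPM in RPMS (edgeR: log2 ratio 6.70, SE 0.48, adjusted p = 0.0013). The other genes that the same rule selected were the splicing regulator gene Nova1, the ubiquitin hydrolase gene Uchl1, the CDK5 activator gene Cdk5r1, Gprin1, the synaptic vesicle gene Syp, Stox2, Jph4, Mpp3 and the imprinted gene Mest, with log2 fold changes from 5.41 to 6.52. Those with the largest decreases were Ctsc, Apoe, S100a6, Fn1, Skap2, B2m, Vim, Mgst1, Arhgef6 and Lipa. Vim, the intermediate filament of mesenchymal cells (chromosome 2, 13573927 to 13582826), fell from 978, 920, 1030 and 567 CPM to 5.64, 8.45 and 12.9 CPM (edgeR: log2 ratio -6.60, SE 0.45, adjusted p = 0.00123). No RPM value of Camk2b or Vim overlapped an RPMS value.

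Several genes were nearly level across the RPM samples and far from them in RPMS. Myof, which encodes the membrane repair protein myoferlin (chromosome 19, 37899036 to 38043577), was at 422, 568, 595 and 442 CPM in RPM against 0 counts in all 3 RPMS samples, at least 5474-fold lower against a floor of 3 counts per sample (adjusted p = 0.000916). Anxa2, a calcium-dependent membrane-binding protein, was at 400, 334, 393 and 410 CPM and at 5.03, 6.21 and 33.0 CPM (log2 ratio -4.70, SE 0.78, adjusted p = 0.0065). Zfhx3, a large homeodomain and zinc-finger transcription factor (chromosome 8, 107942644 to 108961630), was at 55.3, 51.7, 64.3 and 51.4 CPM and at 1.29, 1.49 and 1.66 CPM (log2 ratio -5.23, SE 0.25, adjusted p = 0.000862). The rule that chose these genes took only those whose groups did not overlap in the first table, so their separation there is no result. In the second table Myof was at 57.1 CPM and Anxa2 at 117 CPM in CMV_252, and Zfhx3 at 67.6 CPM in CMV_232. Rnase4, Frk, Lrrk1, C1ra, Evi2b and Tagap were also among the rule's lower genes. Evi2b and Tagap, which are known from leukocytes, had 0 counts in RPMS; the SRC-related kinase gene Frk passed only without CMV_428 (edgeR adjusted p = 0.0495) or CMV_252 (adjusted p = 0.00234) among the fits that left out a line, with adjusted p from 0.0521 to 0.0956 in the others.

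In the other direction, Rundc3a (chromosome 11, 102393403 to 102402555) was at 4.81, 6.87, 6.60 and 5.58 CPM in RPM against 274, 284 and 141 CPM in RPMS (edgeR: log2 ratio 5.29, SE 0.32, adjusted p = 0.000916). Tspyl4, a nucleosome assembly family gene, was at 4.48 to 6.32 CPM in RPM against 239, 241 and 89.2 CPM in RPMS (log2 ratio 5.13, SE 0.41, adjusted p = 0.00139). In the second table Rundc3a stood at 433, 559 and 240 CPM in CMV_228, CMV_231 and CMV_232 and at 10.2 CPM in CMV_252, and Tspyl4 at 115, 116, 132 and 53.7 CPM. The cold-inducible RNA-binding protein gene Cirbp, the poly(C)-binding protein gene Pcbp4, the co-chaperone genes Sgtb and Dnajb5, Kbtbd8, Mns1, Gprasp1 and the chromatin remodelling gene Bcl7a made up the rest, with log2 fold changes from 2.32 to 3.01.

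Among genes known as STAT3 targets, some were lower, a few were higher and most did not pass the test. Of 28 tested, 10 were lower and 2 higher, against 15.7% and 14.9% of all genes, and their median log2 fold change was -1.64. The lower and higher counts were 6 and 1 without CMV_228, 15 and 2 without CMV_252, and 5 and 1 with the marker covariate. The part of culture make-up in these differences was not tested. Icam1 and Bcl6, both lower, have a sequence of the STAT-binding type close to their start. The bases just before their RefSeq starts (GRCm38.p6) are printed for that reason, with matches to the palindrome TTCNNNGAA in capitals; the letters read alike on both strands and no other motif was searched.
Icam1, chr9:21015690-21015939, plus strand: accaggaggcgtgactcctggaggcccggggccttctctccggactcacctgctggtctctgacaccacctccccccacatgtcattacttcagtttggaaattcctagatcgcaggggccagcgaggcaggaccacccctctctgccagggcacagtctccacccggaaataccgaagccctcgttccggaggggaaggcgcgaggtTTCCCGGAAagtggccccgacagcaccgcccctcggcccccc
Bcl6, chr16:23988853-23989102, minus strand: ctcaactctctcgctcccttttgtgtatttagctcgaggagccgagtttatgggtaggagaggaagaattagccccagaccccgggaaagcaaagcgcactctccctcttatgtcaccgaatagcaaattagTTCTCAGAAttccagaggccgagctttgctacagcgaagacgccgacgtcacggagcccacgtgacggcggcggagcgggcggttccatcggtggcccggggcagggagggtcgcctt
The Icam1 match begins 42 bases and the Bcl6 match 118 bases before the start. A second RefSeq start of Bcl6 has 3 matches, beginning 168, 122 and 88 bases before it, and Socs3, which was not called, has a match 154 bases before its start. The motif occurs in the 250 bases before 2306 of 32851 RefSeq starts (7.02%) and before 4 of the 24 tested target genes with an entry, 2 of the 9 lower genes and 2 of the 13 not called. A match in these letters is a description and does not show binding.

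Icam1, the adhesion receptor ICAM-1, was at 93.5, 45.7, 79.9 and 143 CPM in RPM against 0.307, 0 and 0.241 CPM in RPMS (edgeR: log2 ratio -8.91, SE 1.05, adjusted p = 0.00268). Bcl6 was at 37.1, 53.5, 34.5 and 42.7 CPM and at 0.215, 0.158 and 0.995 CPM (log2 ratio -6.51, SE 0.79, adjusted p = 0.0028). Both groups were fully apart for both genes, and the second table gave Icam1 at 0.113 to 0.842 CPM in all 4 lines but Bcl6 at 1.52, 3.14, 7.58 and, in CMV_252, 35.3 CPM. Junb, an AP-1 subunit, fell from 71.3, 101, 81.4 and 45.0 CPM to 11.1, 8.80 and 16.5 CPM (log2 ratio -2.62, SE 0.37, adjusted p = 0.004). The NF-kB cofactor gene Bcl3, the interferon regulator gene Irf9 and the anti-apoptotic gene Mcl1 were lower by log2 fold changes of -5.53, -2.41 and -1.56.
Socs3 did not pass: its levels were 13.7, 31.7, 27.7 and 25.4 CPM in RPM against 31.3, 28.3 and 27.7 CPM in RPMS, a log2 fold change of 0.24 with a 95% interval of -0.48 to 0.97 (adjusted p = 0.589). Hif1a did not pass either, at 195 to 277 CPM in RPM against 210 to 257 CPM in RPMS (log2 ratio -0.05, 95% interval -0.46 to 0.36). The kinase gene Pim2 was higher, at 5.40 to 9.53 CPM in RPM against 28.0, 30.0 and 22.8 CPM in RPMS (log2 ratio 1.96, SE 0.28, adjusted p = 0.00417).

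**Figure D2:**
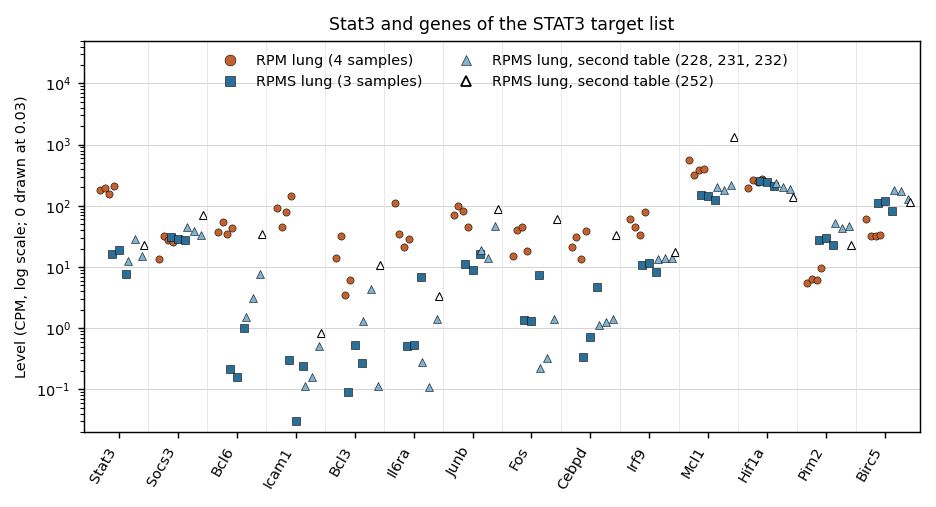
CPM (log scale, 0 drawn at 0.03) of Stat3 and 13 genes of the STAT3 target list in every sample, with symbols as in the plot of marker sums. Bcl6 and Icam1 were below 1 CPM in all 3 RPMS samples of the first table, Socs3 overlapped between the groups, and Pim2 was higher in every RPMS sample than in any RPM sample.

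Among transcription factors, the C/EBP, MAF and MITF-TFE families, many of which act in myeloid cells, were lower more often than higher. Of 21 C/EBP, MAF and MITF-TFE factors tested, 10 were lower and 1 higher; without CMV_228 or CMV_231 6 were lower in each fit and none was higher. Mitf, a regulator of melanocytes, osteoclasts and lysosomal genes, was at 48.5, 38.4, 19.2 and 27.7 CPM in RPM against 1.35, 1.08 and 0.754 CPM in RPMS (edgeR: log2 ratio -4.97, SE 0.47, adjusted p = 0.00173). Its macrophage relative Tfec was at 14.4 to 57.5 CPM in RPM against 0 in RPMS. The macrophage factor gene Spi1 fell from 176, 101, 57.3 and 59.8 CPM to 0, at least 1065-fold (adjusted p = 0.00216). Their RPM levels were highest in CMV_426, the sample with the highest leukocyte and macrophage sum.
Other factors had a different order among the RPM samples. Runx1, which marks haematopoietic, epithelial and mesenchymal cells, was at 56.2, 75.3, 93.8 and 76.8 CPM in RPM against 0.307, 0.285 and 0.694 CPM in RPMS (log2 ratio -7.45, SE 0.49, adjusted p = 0.00116), and Runx2, a bone and mesenchyme factor, fell from 24.0 ± 7.22 CPM (SD, n = 4) to 0.548 ± 0.214 CPM (SD, n = 3). Both were lowest in CMV_426 among the RPM samples, and the part of culture make-up in their difference was not tested. In the GATA, RUNX, Ikaros, ZIC and PRDM list 5 of 24 were lower and 3 higher, close to the 15.7% and 14.9% of all genes, with 3 and 1 without CMV_228 and 4 and 1 without CMV_231 or CMV_427.

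Immediate-early, Krüppel-like and ETS factors were called about as often as genes at large. Of the AP-1 and immediate-early genes 28.6% were called, and likewise of the KLF and SP factors, against 30.6% of all genes. In the ETS list that share was somewhat above the share of all genes. Genes called lower made up 15.7% of all genes. Of 21 AP-1 and immediate-early genes 6 were lower and none higher, Junb and Fosl2 among them; Fosl2 fell from 57.9 to 166 CPM to 3.67 to 13.2 CPM (edgeR: log2 ratio -3.61, SE 0.61, adjusted p = 0.0068). Of 21 KLF and SP factors 4 were lower and 2 higher (2 and 0 without CMV_228 or CMV_231, 3 and 0 without CMV_426, 8 and 3 without CMV_252). Klf6, a tumour suppressor of the family, was at 240 to 306 CPM in RPM against 20.4, 24.3 and 9.08 CPM in RPMS (log2 ratio -3.93, SE 0.38, adjusted p = 0.00179). Of 20 ETS factors 6 were lower and 1 higher (3 and 0 without CMV_228, 4 and 0 without CMV_231 or CMV_427, 11 and 2 without CMV_252). Etv1 and Elf1 fell by 4.14 and 2.25 on the log2 scale.
Nuclear receptors stood near the background, with 5 lower and 3 higher of 35 (3 and 1 without CMV_228, 4 and 1 without CMV_231, 3 and 3 without CMV_428). The shared heterodimer partner RXRα, encoded by Rxra, was at 178, 124, 110 and 87.4 CPM in RPM against at most 24.6 CPM in RPMS (log2 ratio -2.57, SE 0.29, adjusted p = 0.00253). Its partners in lipid metabolism, Pparg and Nr1h3, fell by 4.43 and 3.61 on the log2 scale. Esrrg, an orphan receptor of oxidative tissues, was detected in RPM only in CMV_427, at 0.299 CPM, and stood at 18.4, 6.59 and 14.5 CPM in RPMS (adjusted p = 0.0113).

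The zinc-finger list held the most higher factors. In the list of MEF2, RFX, GLI-similar and insulinoma zinc-finger factors 10 of 19 were higher and 3 lower, with a median log2 fold change of 2.03, and 8 to 10 were higher whichever line was left out. St18, Myt1 and Myt1l, related neural zinc-finger factors, were among them. St18 was at 20.7, 2.32, 2.52 and 3.60 CPM in RPM against 405, 350 and 45.7 CPM in RPMS (edgeR: log2 ratio 5.19, SE 1.14, adjusted p = 0.0155). Myt1 was at 0 to 4.15 CPM and at 204, 210 and 85.2 CPM (adjusted p = 0.0161), and Myt1l was detected in RPM only in CMV_426, at 0.469 CPM, against 104, 92.7 and 56.0 CPM in RPMS (adjusted p = 0.00467). All 3 genes were near 0 in CMV_252 of the second table, at 1.99, 1.30 and 0.536 CPM, and at 52.0 CPM or more in the other 3 lines there. The ubiquitously expressed Rfx7 rose less, from 59.0 to 82.5 CPM to 132 to 159 CPM (log2 ratio 0.99, SE 0.18, adjusted p = 0.00844).
Of 18 LIM, POU and related homeobox factors 5 were higher and 1 lower, and of 17 NK2, DLX, IRX, MEIS and PBX factors 4 were higher and 1 lower; without CMV_228 or CMV_231 each list had 2 higher and none lower, and without CMV_427 or CMV_428 each had 3 higher. Forkhead factors split into 3 higher and 5 lower of 25. Foxp1, a repressor active in lung epithelium and lymphocytes, rose from 65.7, 78.9, 86.5 and 99.1 CPM to 206 to 268 CPM (log2 ratio 1.51, SE 0.19, adjusted p = 0.00306), and Foxk2 by 1.32. Leaving out 1 line gave between 1 and 9 lower forkhead genes, the most without CMV_252 and the fewest without CMV_228 or CMV_428. The shares called in these homeobox and forkhead lists were 33.3%, 29.4% and 32.0%, near the 30.6% of all genes.

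**Figure D3:**
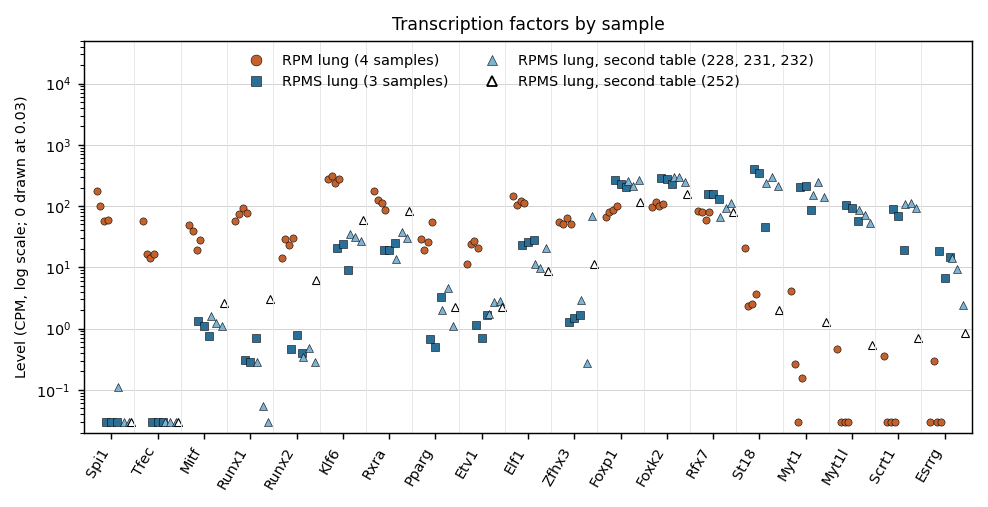
CPM (log scale, 0 drawn at 0.03) of 19 transcription factor genes in every sample, with symbols as in the plot of marker sums. Spi1 and Tfec were at 0 in all 3 RPMS samples of the first table, Runx1 and Zfhx3 were below 2 CPM there, and Foxp1, Foxk2 and Rfx7 differed by less than 4-fold between the group means.

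Ligand-gated ion channels, which open when glutamate, GABA, acetylcholine, serotonin or ATP binds, had the highest share of higher members of the 40 lists other than cell type markers. Of 36 tested, 28 were higher and 3 lower, and the median log2 fold change was 6.64, or 5.03 with genes at 0 in a group set to their bound; 19 remained higher in every fit that left out a line. The kainate receptor subunit gene Grik3 had 0 counts in all 4 RPM samples and stood at 198, 207 and 25.0 CPM in RPMS, at least 1226-fold higher (edgeR adjusted p = 0.00741). The AMPA receptor subunit gene Gria4 had 1 count in all RPM samples together, in CMV_428, and stood at 64.3, 48.2 and 7.69 CPM in RPMS (adjusted p = 0.00206). The GABA-A receptor subunit gene Gabra4 was at 0 in RPM and at 31.5, 13.7 and 6.88 CPM in RPMS.
The NMDA receptor subunit gene Grin1, the serotonin-gated channel gene Htr3a, the kainate subunit gene Grik5 and the nicotinic subunit gene Chrnb2 were also higher. Chrnb2 was at 5.55, 3.66, 1.60 and 4.31 CPM in RPM against 74.2, 68.9 and 33.2 CPM in RPMS (log2 ratio 3.96, SE 0.50, adjusted p = 0.00306). The 3 lower members were the ATP-gated channel genes P2rx4 and P2rx7, which macrophages also express, and the muscle-type nicotinic subunit gene Chrnb1. P2rx4 was at 81.3, 56.6, 52.3 and 59.7 CPM and at 4.32, 4.40 and 7.18 CPM (log2 ratio -3.56, SE 0.32, adjusted p = 0.00161). In the fit with the leukocyte and macrophage covariate 7 channel genes were called higher and 1 lower. Grik3 and Gabra4, at 0 in all RPM samples, were not called there despite log2 fold changes of 14.84 and 11.85. The count of 7 therefore does not show which channel genes differ apart from culture make-up. In the second table Grik3 was at 59.4 and 124 CPM in CMV_228 and CMV_231 but at 0.399 and 0.0766 CPM in CMV_232 and CMV_252.

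G protein-coupled receptors were counted by ligand class, and the difference between the classes was not tested. Of 29 receptors for lipids and purines, 16 were lower and 1 higher (11 and 0 with the marker covariate), with a median log2 fold change of -5.91 (-5.19 with genes at 0 set to their bound). The leukotriene receptor gene Cysltr1 and the purine receptor genes P2ry6 and P2ry12 had 0 counts in RPMS, at least 156-fold, 330-fold and 126-fold lower. The sphingosine-1-phosphate receptor gene S1pr2 was at 91.2, 76.2, 37.0 and 42.1 CPM in RPM against 1.13, 0.507 and 1.42 CPM in RPMS (edgeR: log2 ratio -5.91, SE 0.60, adjusted p = 0.00188), and the lysophosphatidic acid receptor gene Lpar6 fell by 6.43. These receptors are common on macrophages. S1pr2 and Lpar6 were highest in CMV_426 and CMV_427, as was the leukocyte and macrophage sum, and the part of those cells in the difference was not tested. The cannabinoid receptors went apart: Cnr2, the leukocyte form, was at 28.0, 2.50, 4.92 and 3.20 CPM in RPM against 0 in RPMS, while Cnr1, the neuronal form, was at 0 in RPM and at 36.1, 33.6 and 200 CPM in RPMS, at least 768-fold higher (adjusted p = 0.0081).

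Of 30 peptide and amine receptors 9 were higher and 4 lower (5 and 4 without CMV_228, 1 and 2 with the marker covariate). Sstr2, the somatostatin receptor targeted in neuroendocrine tumours, was at 0.743, 0.859, 1.20 and 0.514 CPM in RPM against 26.7, 50.1 and 57.5 CPM in RPMS (edgeR: log2 ratio 5.75, SE 0.44, adjusted p = 0.00132). The dopamine receptor gene Drd2 was detected in RPM only in CMV_426, at 0.352 CPM, and stood at 2.82, 23.7 and 38.8 CPM in RPMS (adjusted p = 0.0145), and the histamine receptor gene Hrh3 was at 0 to 0.391 CPM and 9.94 to 30.4 CPM. The PACAP receptor gene Adcyap1r1 was at 0 in RPM and at 25.7, 33.5 and 3.44 CPM in RPMS of the first table, but at only 0.108 to 2.19 CPM in the second. The lower members included Adra1a, an adrenergic receptor gene, at 6.41 to 15.4 CPM in RPM against 0 in RPMS, and Calcrl, the calcitonin-receptor-like gene, whose log2 fold change was -6.11.
Adhesion and orphan receptors were 14 higher and 7 lower of 34 (7 and 3 without CMV_228, 8 and 1 without CMV_231). Adgrl1, a latrophilin of synapses, was at 21.9, 27.6, 38.6 and 37.7 CPM in RPM against 547, 516 and 1347 CPM in RPMS (log2 ratio 4.67, SE 0.44, adjusted p = 0.00171), and stood at 301 to 1007 CPM in all 4 lines of the second table, CMV_252 included. Adgrb3, Adgrb2, Celsr3 and the orphan receptor gene Gpr85 were higher as well, with Gpr85 at 1.44 to 3.60 CPM in RPM against 24.4 to 29.3 CPM in RPMS.

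**Figure D4:**
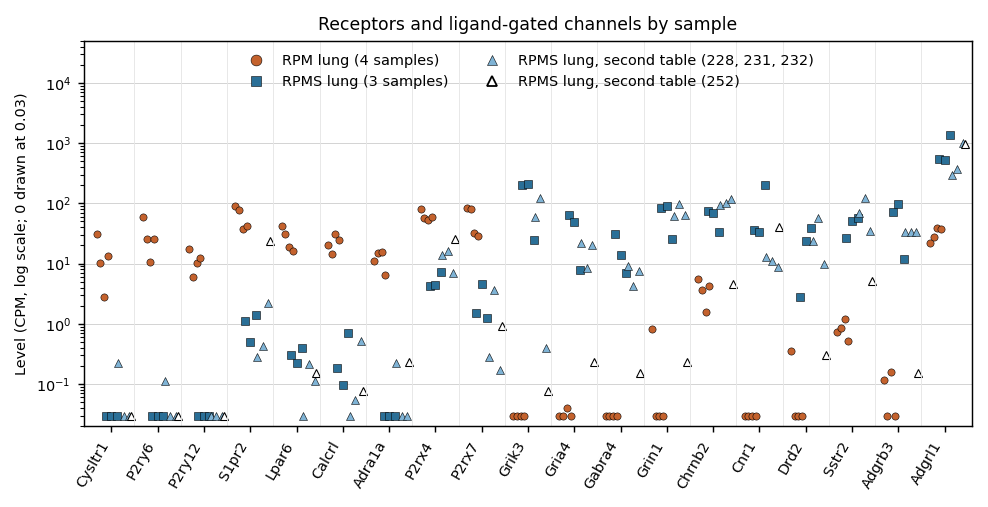
CPM (log scale, 0 drawn at 0.03) of 19 genes for G protein-coupled receptors and ligand-gated channels in every sample, with symbols as in the plot of marker sums. Lipid and purine receptors on the left were lower in RPMS, most glutamate, GABA and amine receptors on the right were higher, and Adgrl1 was at 301 CPM or more in every RPMS sample of both tables.

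Wnt genes were called about as often as genes at large: 7 of 42 were higher and 7 lower (2 and 5 without CMV_228, 3 and 6 without CMV_231, 8 and 12 without CMV_252). The frizzled receptor genes Fzd7 and Fzd5 and the secretion factor gene Wls fell. Another frizzled gene, Fzd3, and the feedback gene Axin2 rose, by 3.27 and 5.48 on the log2 scale, but both lost the call in some fits that left out a line. Fzd7 was at 41.9, 80.0, 137 and 141 CPM in RPM against 0.705, 1.46 and 2.84 CPM in RPMS (edgeR: log2 ratio -5.90, SE 0.74, adjusted p = 0.00298), Fzd5 fell by 3.51, and Wls, which carries Wnt ligands to the surface, had a log2 ratio of -3.21. Tcf7l2, a nuclear partner of β-catenin, was at 5.40, 5.53, 8.32 and 8.19 CPM in RPM against 0 in RPMS, at least 74.2-fold lower (adjusted p = 0.00187). The Wnt co-receptor gene Ryk rose from 40.9 to 74.4 CPM to 138 to 160 CPM (log2 ratio 1.43, SE 0.24, adjusted p = 0.00676), and the feedback inhibitor gene Nkd1 from 0.440 to 3.62 CPM to 19.7 to 80.6 CPM. Of 14 Hedgehog genes 1 was higher and 1 lower, and none was called without CMV_228 or CMV_231. The share called was 14.3%, below the 30.6% of all genes.
Feedback genes of the ERK pathway were more often lower than higher, 11 of 30 with 1 higher (7 and 1 without CMV_228 or CMV_231). The ERK phosphatase gene Dusp6 was at 36.3, 268, 125 and 68.8 CPM in RPM against 6.50, 4.12 and 1.48 CPM in RPMS (log2 ratio -4.95, SE 0.92, adjusted p = 0.00935). Ier3 fell by 7.82 and Etv1 by 4.14 on the log2 scale. The JNK phosphatase gene Dusp8 was the higher member, from 2.66 to 9.60 CPM to 28.3 to 113 CPM.

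Chromatin remodelling subunits were called in a single direction. Of 29 BAF complex genes 13 were higher and none lower, a median log2 fold change of 0.77; 6 were higher without CMV_228, 5 without CMV_231 and 3 with the marker covariate. Bcl7c was at 15.6, 25.4, 16.7 and 21.4 CPM in RPM against 90.4, 96.0 and 64.7 CPM in RPMS (edgeR: log2 ratio 2.08, SE 0.25, adjusted p = 0.00283), and Bcl7a at 24.4 to 32.9 CPM and 200, 188 and 66.3 CPM. The core subunit gene Smarce1 rose from 84.2 to 102 CPM to 148 to 242 CPM (log2 ratio 1.14, SE 0.21, adjusted p = 0.00896). The neuron-specific subunit gene Actl6b was detected in RPM only in CMV_426, at 0.313 CPM, and stood at 32.4, 31.3 and 7.18 CPM in RPMS (adjusted p = 0.00916).
Oncofetal and imprinted genes were 18 higher and 5 lower of 34 (11 and 4 without CMV_228, 9 and 4 without CMV_231). Peg3, a paternally expressed zinc-finger gene, was at 19.6, 8.37, 0.160 and 2.69 CPM in RPM against 571, 545 and 305 CPM in RPMS (log2 ratio 5.94, SE 1.29, adjusted p = 0.015), and its neighbour Usp29 at 0 to 0.978 CPM and 31.8 to 87.8 CPM; the strand setting of the counting is not stated, so reads of such neighbouring or overlapping genes may be mixed. Mest was at 1.84 to 4.59 CPM and at 41.5, 28.8 and 379 CPM. Gnas went from 441 to 708 CPM to 3471, 3564 and 1067 CPM, but the rise was not seen in the second table. There CMV_228, CMV_231, CMV_232 and CMV_252 stood at 240, 442, 248 and 59.3 CPM, near or below the lowest RPM sample. The let-7 inhibitor gene Lin28b was at 0 in RPM and at 4.05, 4.18 and 4.83 CPM in RPMS, while the RNA-binding protein genes Igf2bp2 and Igf2bp3 fell by 5.54 and 5.59 on the log2 scale and Igf2bp1 from 1.60 to 7.32 CPM to 1 count in all RPMS samples. The mannose-6-phosphate receptor gene Igf2r fell from 325, 372, 359 and 295 CPM to 102, 103 and 70.8 CPM (log2 ratio -1.88, SE 0.20, adjusted p = 0.00213).
Of 43 genes of homologous recombination and the Fanconi anaemia pathway 10 were higher and 1 lower (3 and 0 without CMV_228 or CMV_231, 6 or 7 higher without CMV_427, CMV_428 or CMV_429). The share called was 25.6%, below the 30.6% of all genes.

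Genes of fatty acid synthesis went both ways, and those of uptake and oxidation were mostly lower where called; the difference between these lists was not tested. Of 27 genes of fatty acid synthesis and desaturation 8 were higher and 4 lower (6 and 2 without CMV_231, 1 and 3 with the marker covariate). The desaturase gene Scd2 was at 594, 743, 865 and 461 CPM in RPM against 2329, 2207 and 1275 CPM in RPMS (edgeR: log2 ratio 1.54, SE 0.30, adjusted p = 0.0111). The elongase gene Elovl2 was at 0 to 0.274 CPM and at 47.9, 46.2 and 17.8 CPM (adjusted p = 0.00277), Elovl4 and Elovl6 rose by 3.69 and 2.91 on the log2 scale, and the triglyceride synthase gene Dgat2 by 3.71. Elovl1 moved the other way, from 78.1 to 103 CPM to 28.0 to 31.1 CPM (log2 ratio -1.58). The fatty acid synthase gene Fasn, at 361 to 524 CPM and 384 to 886 CPM, did not pass (adjusted p = 0.121).
Of 40 genes of fatty acid uptake and oxidation 12 were lower and 2 higher (8 and 0 without CMV_228 or CMV_231, 18 and 4 without CMV_252). The scavenger receptor gene Cd36 was at 2041, 2209, 769 and 334 CPM in RPM against 0.0920, 0 and 0.121 CPM in RPMS (log2 ratio -14.10, SE 1.32, adjusted p = 0.00171), and the lipid droplet gene Plin2 at 596 to 1687 CPM and 0.724 to 6.55 CPM. Both are abundant in foam cells and macrophages. The mitochondrial dehydrogenase gene Acadl, at 239, 186, 261 and 258 CPM, was more even across RPM and stood at 26.6, 36.6 and 85.3 CPM in RPMS (log2 ratio -2.25, SE 0.43, adjusted p = 0.01).

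Iron and antioxidant genes were far more often lower than higher. Of 26 iron genes 16 were lower and none higher, with a median log2 fold change of -2.98 (10 lower without CMV_228, 9 without CMV_231). Fth1, the ferritin heavy chain, was at 8628, 4318, 2481 and 3050 CPM in RPM against 205, 177 and 181 CPM in RPMS (edgeR: log2 ratio -4.62, SE 0.53, adjusted p = 0.00258), and Ftl1, the light chain, fell by 2.88. Ferritin genes have near-identical copies in the genome, so their counts are uncertain, and macrophages are rich in both. The phagosomal metal transporter gene Slc11a1 was at 60.4 to 203 CPM in RPM against 0 in RPMS. Of 44 NRF2 and antioxidant genes 20 were lower and 2 higher (14 and 0 without CMV_228, 13 and 0 without CMV_231), and Nfe2l2, which encodes NRF2, fell from 401, 248, 184 and 269 CPM to 20.4, 19.2 and 42.0 CPM (log2 ratio -3.34, SE 0.43, adjusted p = 0.00314). The pentose phosphate enzyme gene Pgd was at 412, 267, 346 and 431 CPM and at 69.8, 75.0 and 53.8 CPM (log2 ratio -2.46, SE 0.24, adjusted p = 0.00181), and G6pdx was lower too (adjusted p = 0.00333). The pathway's transketolase gene Tkt did not pass, at 335 to 640 CPM in RPM against 437 ± 8.93 CPM (SD, n = 3) in RPMS (log2 ratio -0.11, 95% interval -0.67 to 0.44).

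Housekeeping pathways showed few calls, with 9.76% of respiratory chain genes called against 30.6% of all genes. Of 41 genes of the mitochondrial respiratory chain 4 were higher and none lower, 2 were called without CMV_429 and none without CMV_228, CMV_231, CMV_426 or CMV_427. Of 44 ribosome biogenesis genes none was called by edgeR in either direction, although DESeq2 gave 2 higher and 1 lower and the edgeR fit without CMV_252 gave 17 lower and 1 higher. At an unadjusted p under 0.05 edgeR gave 2 higher and 2 lower, and limma-voom gave 2 higher after adjustment. Of the genes with the narrowest intervals, Sdha and Cox4i1 of the respiratory chain had log2 fold changes of -0.20 and 0.29, the serine synthesis gene Psat1 -0.23, the clock kinase gene Csnk1d 0.15 and the topoisomerase gene Top1 0.12, each with a 95% interval inside 0.75 in either direction. In all, 59 of 1170 tested list members had such an interval.
In the secretory stress list all called genes were lower, 12 of 34 (5 without CMV_228 or CMV_231, 6 without CMV_427, 7 without CMV_426). That share of 35.3% called stood near the 30.6% of all genes, of which 15.7% were lower. Edem1, a factor of endoplasmic reticulum degradation, fell from 430, 276, 202 and 319 CPM to 57.8, 47.6 and 36.8 CPM (edgeR: log2 ratio -2.69, SE 0.32, adjusted p = 0.00268), and the disulfide isomerase genes Pdia6 and Pdia3 by 1.97 and 1.13. In the second table CMV_252 held Pdia6 at 863 CPM and Pdia3 at 1551 CPM, above every RPM sample, and the other 3 lines held Pdia6 at 95.2 to 139 CPM.

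In the remaining metabolic and structural lists, calls went both ways. Nucleotide, serine and one-carbon genes were 7 higher and 5 lower of 39, with 3 called in all without CMV_231, 4 without CMV_228, 6 or 7 without any RPM line and 15 without CMV_252. The thymidylate kinase gene Dtymk rose from 34.4 to 58.2 CPM to 99.0 to 102 CPM (edgeR: log2 ratio 1.13, SE 0.22, adjusted p = 0.01), and the adenylosuccinate synthase gene Adssl1 fell by 5.36. Transporters for amino acids, glucose and monocarboxylates were 8 higher and 11 lower of 42 (1 and 5 without CMV_228, 2 and 5 without CMV_231, and 3 to 5 higher without CMV_427, CMV_428, CMV_429 or CMV_252). The cationic amino acid carrier gene Slc7a3 rose by 3.70, and the lysosomal sensor gene Slc38a9, even across RPM at 32.8 to 41.6 CPM, fell to 12.3 to 16.4 CPM. Clock genes were 4 higher and 1 lower of 26 (2 and 1 without CMV_228 or CMV_231), with Csnk1e rising from 106 to 127 CPM to 188 to 234 CPM.
Cilium genes were 7 higher and 6 lower of 50 (2 and 2 without CMV_228 or CMV_231, 4 higher without CMV_426 or CMV_429, 10 lower without CMV_252). The small GTPase gene Arl3 and the BBSome gene Bbs4 rose by 1.47 and 1.58, and the transport genes Wdr60 and Wdr19 fell by 2.90 and 2.07. Retinoid genes were 1 higher and 4 lower of 21; the dehydrogenase gene Dhrs9 and the transporter gene Stra6l had 0 counts in RPMS. Of 4 Hox genes tested 2 were lower, and 1 to 3 when a line was left out. The share called was 30.8% of the nucleotide, serine and one-carbon genes, 19.2% of clock, 26.0% of cilium and 23.8% of retinoid genes. Over all genes it was 30.6%.

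Actin regulators and membrane scaffolds fell in larger numbers. Of 63 actin and contractility genes 30 were lower and 7 higher (19 and 4 without CMV_228, 24 and 4 without CMV_231), and with the marker covariate 24 were lower and 2 higher. Filamin A, the actin crosslinker encoded by Flna, was at 1329, 1444, 1401 and 1785 CPM in RPM against 158, 176 and 276 CPM in RPMS (edgeR: log2 ratio -2.87, SE 0.27, adjusted p = 0.00171). Actn1, a crosslinker of stress fibres, was at 191, 312, 227 and 334 CPM and at 36.5, 42.1 and 38.1 CPM (log2 ratio -2.77, SE 0.25, adjusted p = 0.00165). Among the RPM samples both were lowest in CMV_426, where the leukocyte and macrophage sum was highest. The part of culture make-up in these differences was not tested. Lcp1 and Capg, which encode leukocyte-rich actin proteins, were highest in CMV_426 and CMV_427: Lcp1 was at 1751, 969, 505 and 473 CPM and at 0.190 to 1.15 CPM. The higher genes included Wasf1 and Wasf3, of the WAVE complex, and the nonmuscle myosin gene Myh10, at 69.1 to 206 CPM and 504 to 618 CPM.
Of 13 caveola genes 5 were lower and 3 higher (3 and 2 without CMV_228 or CMV_231). Cav1 was at 11.2, 18.0, 63.7 and 42.2 CPM in RPM against 0.0920, 0 and 0.211 CPM in RPMS (log2 ratio -8.31, SE 1.24, adjusted p = 0.00467), and Cav2 fell by 5.47. The neuronal membrane-bending gene Pacsin1 was the other way, at 0 to 0.196 CPM and 22.6 to 38.9 CPM. Galectins and S100 proteins had the highest share of lower members of the 40 lists, 11 of 16 with none higher, and 10 or 11 whichever line was left out. Lgals3, or galectin-3, was at 1572, 833, 804 and 579 CPM and at 0.307, 0.317 and 0 CPM (log2 ratio -12.13, SE 1.09, adjusted p = 0.00163), and S100a6 at 152, 188, 576 and 632 CPM and at 2.82, 1.39 and 1.51 CPM (log2 ratio -7.66, SE 0.82, adjusted p = 0.00214). Lgals3 was highest in CMV_426 and S100a6 lowest there.
Tetraspanins were 4 higher and 8 lower of 28 (2 and 5 without CMV_228 or CMV_426, 2 and 6 without CMV_231, 3 and 5 without CMV_427). Leukocyte tetraspanin genes Cd53 and Cd37 were at 0 in RPMS, and Tspan3 and Tspan13 rose by 1.63 and 3.30. Ganglioside and polysialic acid genes were 5 higher and 4 lower of 33 (2 and 1 without CMV_228, 3 and 1 without CMV_231 or CMV_427, 3 and 3 without CMV_428, 5 and 1 without CMV_426). That list had 27.3% called, against 30.6% over all genes. The sialyltransferase gene St3gal1 fell from 54.9 to 86.1 CPM to 3.19 to 6.27 CPM, and Gne, the first enzyme of sialic acid synthesis, rose by 1.29.

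Genes studied as surface antigens or drug targets in small cell lung cancer were 14 higher and 9 lower of 38 (7 and 5 without CMV_228, 8 and 7 without CMV_231). Ncam1, the CD56 antigen, was at 6.77, 9.82, 8.08 and 4.47 CPM in RPM against 249 ± 35.5 CPM (SD, n = 3) in RPMS (edgeR: log2 ratio 5.10, SE 0.31, adjusted p = 0.000916), and at 109 to 205 CPM in all 4 lines of the second table. The Notch ligand gene Dll3, target of antibody and T cell engager drugs, was detected in RPM only in CMV_426, at 0.235 CPM, and stood at 136, 152 and 2.17 CPM in RPMS (adjusted p = 0.00818). Cd44, the hyaluronan receptor, was at 204 to 431 CPM and at 0.674, 0.760 and 8.41 CPM (log2 ratio -6.69, SE 1.17, adjusted p = 0.00764). Mcl1 fell from 568, 317, 380 and 394 CPM to 150, 146 and 124 CPM (log2 ratio -1.56, SE 0.24, adjusted p = 0.00488), but was at 1346 CPM in CMV_252 of the second table.

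**Figure D5:**
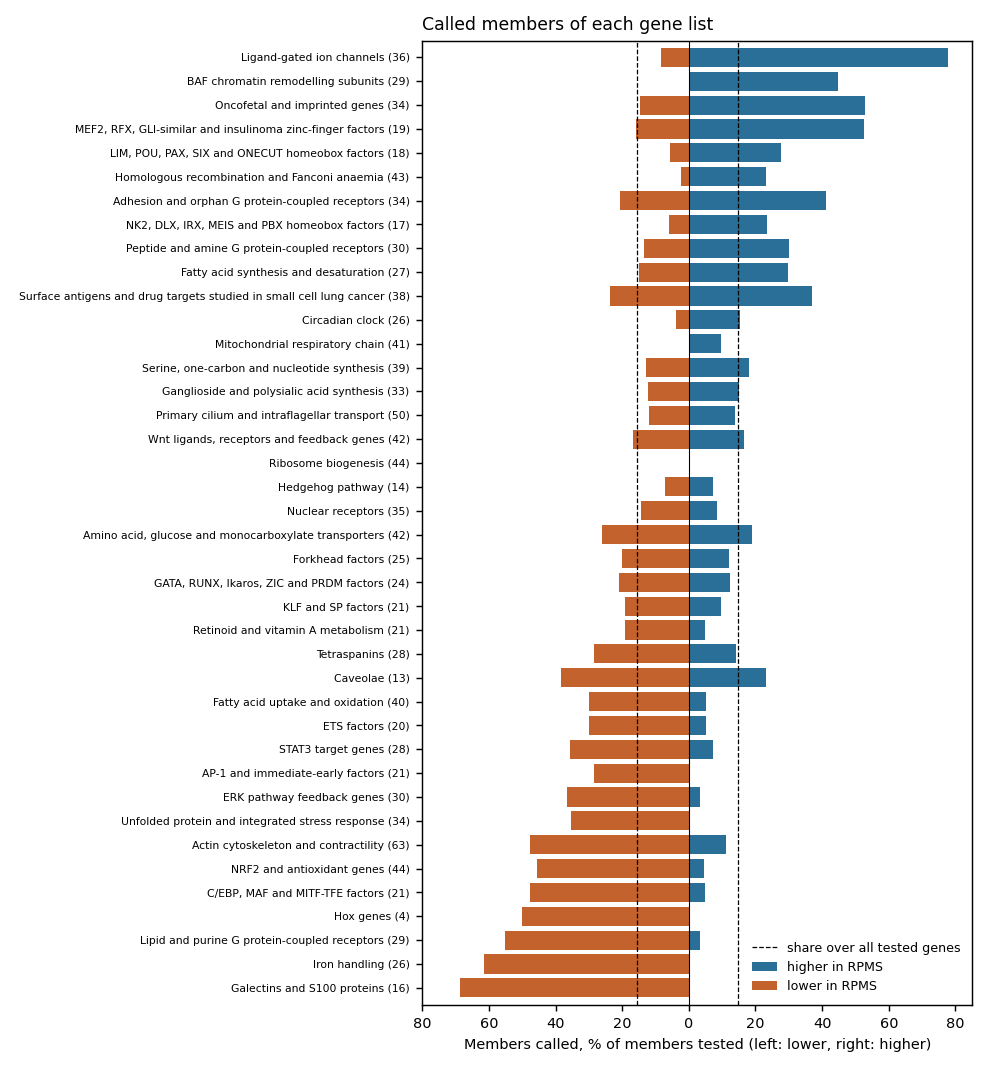
Members called by edgeR in each of the 40 gene lists, in percent of the members tested (number in brackets): bars to the right, higher in RPMS; bars to the left, lower; dashed lines, 14.9% and 15.7% of all genes tested. Ligand-gated ion channels reached furthest to the right with 28 of 36, and galectins and S100 proteins furthest to the left with 11 of 16.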

How the data were processed

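RNA of cultured lines was sequenced from TruSeq stranded libraries, per the labels' protocols. The submitters' processing notes name HISAT2, StringTie and GRCm38; their roles and versions, and whether counting used strand, are not given in the sources used here. The values are raw counts per gene as deposited by the authors, with line names in the column headers; every sample column was mapped by its title (0 not used), although the header of CMV_429 has an extra letter (RRPM for RPM) and matches its title in all other parts. The second table was used for levels only.

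Counts of the 7 samples were tested in R 4.3.3 with edgeR 4.0.16 (TMM factors, filterByExpr, quasi-likelihood F test, two-sided, Benjamini-Hochberg adjusted p under 0.05 over all 17654 genes). In this design an exact permutation test of a single value cannot go below p = 0.0571. CPM values use TMM-scaled totals; "at least" folds use a floor of 3 counts per sample, which covers counting error only. DESeq2 1.42.0, limma-voom 3.58.1, other factors, filters and thresholds, a marker covariate and leaving out each sample were the alternatives. Gene positions are GRCm38 coordinates of the GENCODE annotation.

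The lines and lists were chosen with earlier results of these data known, and no list was tested as a set. Genes named by rule were those of the genotypes; the 10 higher and 10 lower with the largest log2 fold change among called genes at 1 CPM or more in every sample, and likewise among genes even across RPM; up to 4 called members of each list with the smallest p and a mean of at least 10 CPM; the 8 most abundant list members with a narrow interval; and the 6 higher and 6 lower transcription factors and receptors with the largest change called in every fit. Some genes that the rule selected are not reported here. Other list members named were chosen after their values were seen.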

Additional observations from a re-analysis of the deposited data

Results flagged for a closer look

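In at least 20 of the 287 named genes and in 2 marker sums, 1 of the 4 RPM samples lay far from the other 3. The measure was Dixon's criterion, which chance alone meets in about 1 of 20 groups, so some such cases arise by chance. That rate does not hold for genes with reads in only 1 RPM sample. With the other 3 at 0, any read meets the criterion. The genes given here are not all that met it: Hmga2 at 259 CPM and Fzd3 at 20.5 CPM in CMV_427 did too. The genes that met it included neural genes and the imprinted gene Usp29, all high in RPMS, with CMV_426 above the other RPM samples. In that line St18 stood at 20.7 CPM against 2.32 to 3.60 CPM in the others, Syp at 11.1 against 1.01 to 1.36 CPM, Myt1 at 4.15 against 0 to 0.261 CPM and Usp29 at 0.978 against 0 to 0.0791 CPM. CMV_426 alone had reads of Grin1 at 0.821 CPM, Htr3a at 0.587 CPM, Myt1l at 0.469 CPM, Drd2 at 0.352 CPM, Actl6b at 0.313 CPM and Dll3 at 0.235 CPM. The same line was also far above the others for Tfec at 57.5 CPM and Cnr2 at 28.0 CPM, which are high in RPM.

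CMV_427 was far from the other RPM samples for Fasn at 524 CPM, Igf2bp2 at 78.2 CPM, Chrnb1 at 42.7 CPM and Sgtb at 9.56 CPM, and alone had reads of Esrrg at 0.299 CPM. CMV_428 was low for Rfx7 at 59.0 CPM against 80.2 to 82.5 CPM, and alone had a read of Gria4 at 0.0400 CPM. CMV_429 was high for Camk2b at 3.36 CPM, for the mesothelium marker sum at 75.2 CPM and for the pan-epithelial marker sum at 579 CPM.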

How the results depend on the processing

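Of 5403 calls (2639 higher, 2764 lower), a threshold of 0.01 left 2103 (906 and 1197). Testing for changes beyond a log2 ratio of 1 left 2818 (1241 and 1577). The fit with the marker covariate called 2060 (703 and 1357). Leaving out each line in turn gave 2896 to 7076 calls, 1302 to 3530 higher and 1594 to 3546 lower. Under the same 3 settings the 473 called list members became 189, 270 and 204 (260 to 574 without a line), the 2838 calls among genes detected in every sample became 929, 828 and 823 (1244 to 3992), and the 982 among genes even across RPM became 314, 135 and 192 (399 to 1663), or 1777 with a 2-fold limit. DESeq2 (7262 calls), limma-voom (5700), other scaling factors (5451 and 5494), other filters (4590 and 5412) and a robust fit (5263) stayed within 1.5 times. Scaling moved the median of all genes by at most 0.06.

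Over 287 named genes and up to 17 alternatives each (DESeq2 gave no adjusted p for some genes), 4342 results kept direction and side, 515 lost and 10 gained the call, and 8 changed sign, none of them called. With upper-quartile factors Hif1a went to 0.01, and with the covariate Tkt went to 0.44 and Socs3 to -0.28. Leaving out each line gave log2 ratios of -0.13 to 0.02 for Hif1a, -0.25 to 0.08 for Tkt and -0.35 to 0.35 for the nucleolin gene Ncl. The cause was not tested. No paired analysis was possible because the RPM and RPMS lines share no replicate number. Depth limits genes under about 0.120 CPM, the level of 3 counts in the shallowest sample.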
